A study of Mus musculus with 6 samples.

Results

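The ATF4 and CHOP stress response genes are the transcripts that cells raise when translation initiation is held back by phosphorylation of eIF2α. They were followed here through 10 gene symbols: Atf4, Atf5, Atf3, Ddit3, Trib3, Ppp1r15a, Chac1, Sesn2, Asns and Psat1. The symbols matched 11 of 54532 genes in the count table, because Ddit3 has a second entry, and 10 entries had enough counts to be tested. RNA was sequenced from primary myoblasts, muscle progenitor cells cultured from the hind limbs of 3-week-old mice and collected at day 2. The medium held 10% FBS and 10 µg/ml FGF. There were 3 libraries from WT mice and 3 from eIF5A-KO mice. The KO animals carried Pax7CreERT2/+;eIF5A f/f and were given tamoxifen. The text of the study describes its WT controls as Pax7CreERT2/+, and a legend on another experiment gives eIF5A f/f animals without Cre. The Cre acts in cells that express Pax7, so that other cell types in a muscle culture keep the intact gene. A legend of the study speaks of triplicate experiments of this RNA-seq, but the sources used here do not say whether animals were pooled or whether each library came from its own animal or culture, so that the p-values measure the spread between these libraries.

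In the integrated stress response, the kinases PERK, GCN2, PKR and HRI phosphorylate eIF2α, which lowers translation of most mRNAs while the Atf4 mRNA is translated more through its upstream open reading frames. ATF4 pairs with C/EBP factors on composite DNA elements and induces amino acid synthesis genes together with Atf3, Ddit3 (which encodes CHOP), Trib3 and Chac1. Phosphorylation of eIF2α by PERK is also known to keep muscle stem cells quiescent. eIF5A is a translation factor that carries the amino acid hypusine and helps ribosomes past difficult peptide bonds, and the comparison of genotypes asks how the transcripts differ when it is deleted.

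The composite element is shown first because it is the DNA sequence through which ATF4 is known to act. In 300-base windows from RefSeq (GRCm38.p6), covering 250 bases before to 50 bases after each annotated start, both strands were searched for TGATGNAA, the C/EBP-ATF response element, and for TGACGTCA, the cAMP response element bound by ATF and CREB dimers. The 10 symbols had 12 such windows. TGATGNAA was found for 4 of the 10 symbols (Atf3, Chac1, Trib3 and Asns), and 3.97% of all 32851 windows held it. TGACGTCA was found for Ppp1r15a alone, against 1.79% of all windows. The capitals below mark the element in the strand of the gene, and a match describes the letters only.
Atf3: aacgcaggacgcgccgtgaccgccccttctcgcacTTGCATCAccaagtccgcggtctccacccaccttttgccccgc
Chac1: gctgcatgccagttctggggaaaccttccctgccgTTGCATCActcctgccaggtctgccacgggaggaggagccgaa
Trib3: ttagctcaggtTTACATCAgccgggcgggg
Asns: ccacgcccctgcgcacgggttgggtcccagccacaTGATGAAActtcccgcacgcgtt
Ppp1r15a: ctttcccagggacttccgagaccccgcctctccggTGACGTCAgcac

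The Atf3 stretch lies at chr1:191183401-191183478 on the minus strand, with the element 110 bases before the RefSeq start. The Chac1 stretch lies at chr2:119351014-119351091 on the plus strand, with the element 193 bases before the start. Atf3 and Chac1 share the same 8 letters, which read TGATGCAA on the other strand, a form held by 0.895% of all windows. The Trib3 stretch, chr2:152344028-152344057 on the minus strand, has its element 15 bases past the RefSeq start. In Asns, chr6:7693210-7693267 on the minus strand, the element reads in the direction of the gene and begins 23 bases before the RefSeq start. In Ppp1r15a, chr7:45526269-45526315 on the minus strand, the cAMP response element begins 12 bases before the start. These RefSeq starts differ from the ends of the gene entries given below for Atf3, Chac1, Trib3 and Asns: by those entries, the Chac1 and Trib3 elements lie before the gene, and the Atf3 and Asns elements lie inside the span of the gene.

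Total counts per library ranged from 16281216 to 17734551. WT 1 stood apart in its mitochondrial transcripts, which took 5.75% of its counts against 2.11% to 3.50% elsewhere. Eif5a, the gene that was deleted, was at 1603, 986 and 1238 CPM (TMM-scaled counts relative to library size) in WT 1, 2 and 3 and at 1364, 1459 and 1059 CPM in eIF5A-KO 1, 2 and 3. Its log2 fold change was 0.02 (edgeR, adjusted p = 0.993), so that the RNA does not check the labels, and every direction below refers to libraries labelled eIF5A-KO.

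No member passed the test between genotypes, at an adjusted p under 0.05 in edgeR over all 14679 tested genes. The same test called 3 genes in all, 0.0204% of those tested. At an unadjusted p under 0.05, 2 members, Atf3 and Ddit3, were higher in eIF5A-KO, and 2.74% of all tested genes were higher at that level. No member passed the criterion of the study, a fold change over 2 with an unadjusted p under 0.05, which 1.85% of all tested genes met. DESeq2 called 88 genes in all and no member among them. With limma-voom no gene was called at all, so that it could not call a member. In 4 members, Atf3, Ddit3, Chac1 and Ppp1r15a, each eIF5A-KO library lay above every WT library, and 5.68% of all tested genes had that pattern. Of the 10 members, 9 had a log2 fold change above 0 and Psat1 was below it. That count was 7 without WT 1 or without WT 2, and 8 without eIF5A-KO 2 or with counts scaled to the library total alone. The median over the members was 0.18, and the median over all tested genes was -0.01.

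**Figure D1:**
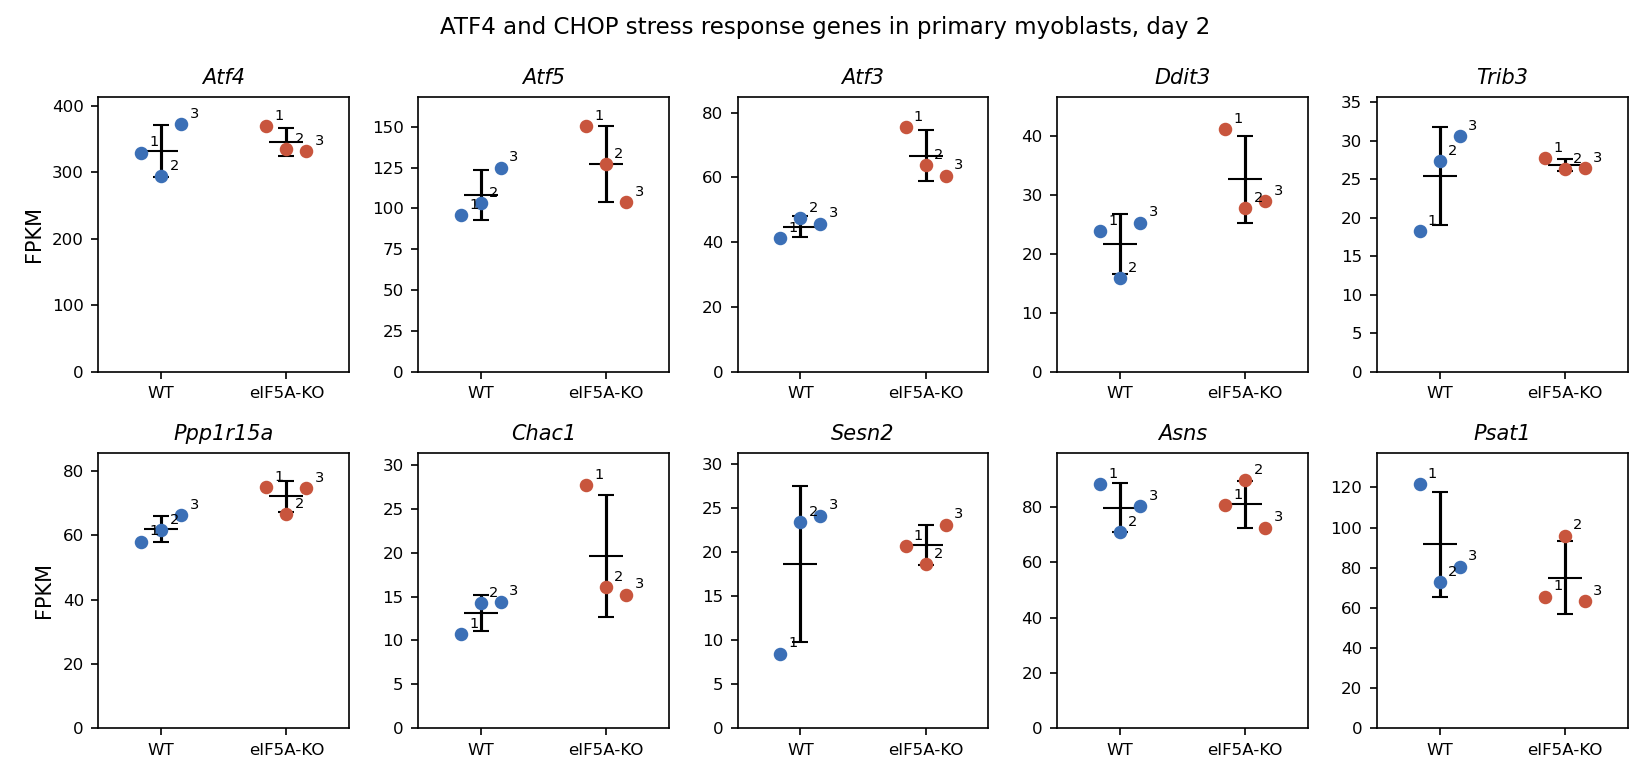
FPKM (fragments per kilobase of gene length, the scaled values of the authors) of the 10 genes, in 3 WT and 3 eIF5A-KO libraries numbered beside their points. Bars are the mean with its standard deviation, and each vertical axis starts at 0; the groups are separate in Atf3, Ddit3, Chac1 and Ppp1r15a and overlap in the other 6 genes.

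Among the 4 transcription factors of the set, Atf4 was the most abundant and its groups overlapped. It encodes the factor at the head of the programme, and its activity is set mainly by translation, which RNA levels do not show. Atf4 (ENSMUSG00000042406, plus strand, chr15:80255184-80257541, up to 4 exons) was at 329, 294 and 372 FPKM in WT 1, 2 and 3 and at 369, 335 and 331 FPKM in eIF5A-KO 1, 2 and 3. All 3 eIF5A-KO libraries fell inside the WT range. The mean was 332 ± 39.2 FPKM (SD, n = 3) in WT and 345 ± 20.9 FPKM (SD, n = 3) in eIF5A-KO. The estimate was a log2 fold change of 0.05 (95% interval -0.35 to 0.45, edgeR adjusted p = 0.982), so that changes above 1.37-fold or below 0.782-fold lay outside the interval.

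Atf5 is a close relative whose mRNA is also translated more under eIF2α phosphorylation, and it is known for its part in the mitochondrial stress response. Atf5 (ENSMUSG00000038539, minus strand, chr7:44812256-44816658, up to 3 exons) was at 96.1, 104 and 125 FPKM in WT 1, 2 and 3 and at 150, 127 and 104 FPKM in eIF5A-KO 1, 2 and 3. The groups overlapped through eIF5A-KO 3, which lay close to WT 2. Its fitted log2 fold change was 0.23 (95% interval -0.22 to 0.67, edgeR adjusted p = 0.913). Leaving libraries out moved it from 0.09, without eIF5A-KO 1, to 0.36, without eIF5A-KO 3, and it was 0.34 without WT 3. Of its exonic bases, 4.11% are shared with Nup62 on the other strand, which had between 2720 and 3401 counts per library.

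Atf3 had the smallest p of the members. It encodes an early-response factor that is induced by ATF4 and by many other stress signals. Atf3 (ENSMUSG00000026628, minus strand, chr1:191170296-191218039, up to 5 exons) was at 41.2, 47.4 and 45.8 FPKM in WT 1, 2 and 3 and at 75.6, 63.8 and 60.6 FPKM in eIF5A-KO 1, 2 and 3. The WT libraries were close together, and the lowest eIF5A-KO library stood clear of the highest of them. The mean was 44.8 ± 3.19 FPKM (SD, n = 3) in WT and 66.7 ± 7.89 FPKM (SD, n = 3) in eIF5A-KO. The fitted log2 fold change was 0.57 (SE 0.17, 95% interval 0.19 to 0.94), a fold of 1.48. The unadjusted p in edgeR, 0.00718, ranked 213 among the tested genes and became 0.484 after adjustment. Without eIF5A-KO 1, its highest library, the log2 fold change was 0.47.

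Ddit3 encodes CHOP, a C/EBP family protein that ATF4 induces and that acts in the death of cells under lasting stress. Ddit3 (ENSMUSG00000025408, plus strand, chr10:127290774-127296288, up to 4 exons) was at 23.8, 15.9 and 25.3 FPKM in WT 1, 2 and 3 and at 41.2, 27.8 and 29.0 FPKM in eIF5A-KO 1, 2 and 3. The groups did not overlap, but WT 3 and eIF5A-KO 2 were close, and WT 2 and eIF5A-KO 1 lay at the far ends. The estimate was a log2 fold change of 0.58 (SE 0.24, 95% interval 0.05 to 1.12), a fold of 1.5. From edgeR, the unadjusted p of Ddit3 was 0.0348 and the adjusted p 0.679. Without eIF5A-KO 1 the log2 fold change was 0.39 with an unadjusted p of 0.154 in edgeR, and without WT 2 it was 0.40 with an unadjusted p of 0.1.

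The second Ddit3 entry (ENSMUSG00000116429, plus strand, chr10:127290829-127293753) is 105 bases long. All of these bases lie in exons of the longer Ddit3 entry, of which they make up 6.13%, and its count was 0 in every library. The longer entry also shares 3.97% of its exonic bases with Mars, the methionyl-tRNA synthetase gene on the other strand. Mars had between 2234 and 2640 counts per library, and the sources used here do not say whether the counting used strand. A read on shared bases of Mars and Ddit3 could then have been left out or given to either gene.

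The members that feed back on the response differed by less than Atf3 and Ddit3 in their fitted values. Trib3 encodes a pseudokinase that binds ATF4 and AKT and dampens the programme. Trib3 (ENSMUSG00000032715, minus strand, chr2:152337422-152344032, up to 4 exons) was at 18.3, 27.3 and 30.6 FPKM in WT 1, 2 and 3 and at 27.7, 26.3 and 26.5 FPKM in eIF5A-KO 1, 2 and 3. The eIF5A-KO libraries were nearly level and fell inside the WT range, and WT 1 was the lowest library. Its fitted log2 fold change was 0.07 (95% interval -0.39 to 0.54, edgeR adjusted p = 0.976), and without WT 1 it was -0.11.

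Ppp1r15a encodes GADD34, the stress-induced subunit that brings a phosphatase to eIF2α and ends the block of translation. Ppp1r15a (ENSMUSG00000040435, minus strand, chr7:45522916-45526268, up to 3 exons) was at 58.1, 61.6 and 66.4 FPKM in WT 1, 2 and 3 and at 75.2, 66.6 and 74.8 FPKM in eIF5A-KO 1, 2 and 3. WT 3 and eIF5A-KO 2 were separated by a small gap, which closed when counts were scaled to the library total alone or by upper-quartile factors. The fitted log2 fold change was 0.21 (95% interval -0.14 to 0.57, edgeR adjusted p = 0.888). Its constitutive counterpart, Ppp1r15b, named after its values were seen, had a log2 fold change of -0.07 (edgeR adjusted p = 0.976).

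**Figure D2:**
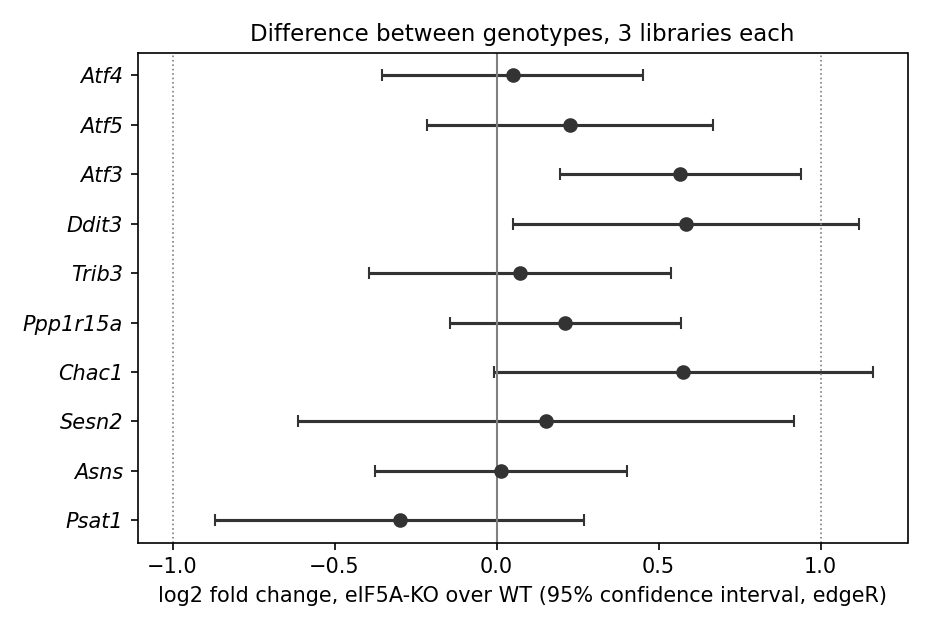
Log2 fold change of each gene, eIF5A-KO over WT, from edgeR with 95% confidence intervals (3 libraries per genotype); dotted lines mark a fold of 2 in either direction. The intervals of Atf3 and Ddit3 lie above 0, those of Ddit3 and Chac1 reach past a fold of 2, and the other 8 exclude it.

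Of the downstream enzymes and sensors, Chac1 had a fitted difference as large as those of Atf3 and Ddit3. It encodes an enzyme that breaks down glutathione and is a classical target of the ATF4 and CHOP branch. Chac1 (ENSMUSG00000027313, plus strand, chr2:119351229-119354381, up to 3 exons) was at 10.7, 14.3 and 14.4 FPKM in WT 1, 2 and 3 and at 27.7, 16.1 and 15.2 FPKM in eIF5A-KO 1, 2 and 3. The groups did not overlap, but eIF5A-KO 2 and 3 lay just above WT 2 and 3. Most of the difference in means came from eIF5A-KO 1. The estimate was a log2 fold change of 0.58 (SE 0.26, 95% interval -0.01 to 1.16, edgeR unadjusted p = 0.0523, adjusted p = 0.741). Without eIF5A-KO 1 it was 0.25, with an unadjusted p of 0.278 in edgeR. Chac1 was also the least counted member, with 275 to 748 reads per library, and counting error at the lowest was 6.03%.

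Sesn2 encodes sestrin 2, a stress-induced protein that senses leucine and holds back mTORC1. Sesn2 (ENSMUSG00000028893, minus strand, chr4:132492032-132510501, 10 exons) was at 8.46, 23.4 and 24.1 FPKM in WT 1, 2 and 3 and at 20.7, 18.6 and 23.1 FPKM in eIF5A-KO 1, 2 and 3. WT 1 was the only library far from the others, and the groups overlapped. Its fitted log2 fold change was 0.15 (95% interval -0.61 to 0.92, edgeR adjusted p = 0.974), and without WT 1 it was -0.19. The coefficient of variation of its FPKM was 47.4% in WT and 10.8% in eIF5A-KO.

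Of the amino acid synthesis members, Asns had a fitted difference close to 0 and Psat1 was below it. Asns encodes asparagine synthetase, a standard readout of amino acid shortage. Asns (ENSMUSG00000029752, minus strand, chr6:7675169-7693254, up to 12 exons) was at 88.5, 71.0 and 80.3 FPKM in WT 1, 2 and 3 and at 80.7, 89.8 and 72.6 FPKM in eIF5A-KO 1, 2 and 3. The groups covered nearly the same range. The fitted log2 fold change was 0.01 (95% interval -0.38 to 0.40, edgeR adjusted p = 0.993), and the sign turned, at -0.01, when counts were scaled to the library total alone.

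Psat1 encodes phosphoserine aminotransferase, an enzyme of serine synthesis. Psat1 (ENSMUSG00000024640, minus strand, chr19:15904678-15947337, up to 9 exons) was at 122, 72.7 and 80.6 FPKM in WT 1, 2 and 3 and at 65.5, 95.9 and 63.2 FPKM in eIF5A-KO 1, 2 and 3. WT 1 was the highest library, and eIF5A-KO 2 lay above the other WT libraries. The estimate was a log2 fold change of -0.30 (95% interval -0.87 to 0.27, edgeR adjusted p = 0.911), and it was -0.03 without WT 1, -0.20 without eIF5A-KO 1, -0.19 without eIF5A-KO 3 and -0.51 without eIF5A-KO 2. An annotated copy, Gm12611, aligned to Psat1 over 1056 bases at 91.0% identity, and it had 0 or 1 count per library.

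In FPKM, which is per gene length, a two-sided exact permutation test on group means gave p = 0.1 for Atf3, Ddit3, Chac1 and Ppp1r15a. That is the smallest p that 3 against 3 libraries allow. Groups that do not overlap always reach it, so that the test restates the separation of these genes in FPKM and adds no evidence. In CPM, 5.68% of all tested genes were higher without overlap and 6.83% were lower without overlap. For the other 6 members the exact permutation p was between 0.2 and 1.

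By mean FPKM over the 6 libraries, the members were ordered Atf4 (338 ± 29.0, SD, n = 6), Atf5 (118 ± 20.4), Psat1 (83.3 ± 22.2), Asns (80.5 ± 7.78), Ppp1r15a (67.1 ± 6.89), Atf3 (55.7 ± 13.1), Ddit3 (27.2 ± 8.29), Trib3 (26.1 ± 4.14), Sesn2 (19.7 ± 5.90) and Chac1 (16.4 ± 5.84). Atf4 was above Atf5 in all 6 libraries, and their ranges did not meet, so that it was the most abundant of the 10 members. Every other pair of neighbours in this order had overlapping ranges. Within libraries, Atf3 was nevertheless above Ddit3, and Trib3 above Sesn2, in all 6. Psat1 was above Asns, Ddit3 above Trib3 and Sesn2 above Chac1 in 4 of 6 libraries, which gives these pairs no firm order.

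The libraries of a genotype did not deviate in the same way in every member. On the log2 CPM scale, WT 1 was the lowest library for 6 members, with Sesn2 at -1.13, Chac1 at -0.54 and Trib3 at -0.49 from the mean of the 6 libraries. It was the highest for Psat1, at 0.59. eIF5A-KO 1 was the highest library for 5 members, with Chac1 at 0.82, Ddit3 at 0.66 and Atf3 at 0.47. The library with the largest share of mitochondrial transcripts was thus also the one in which most members were lowest, and the part of that share in the result was not tested.

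**Figure D3:**
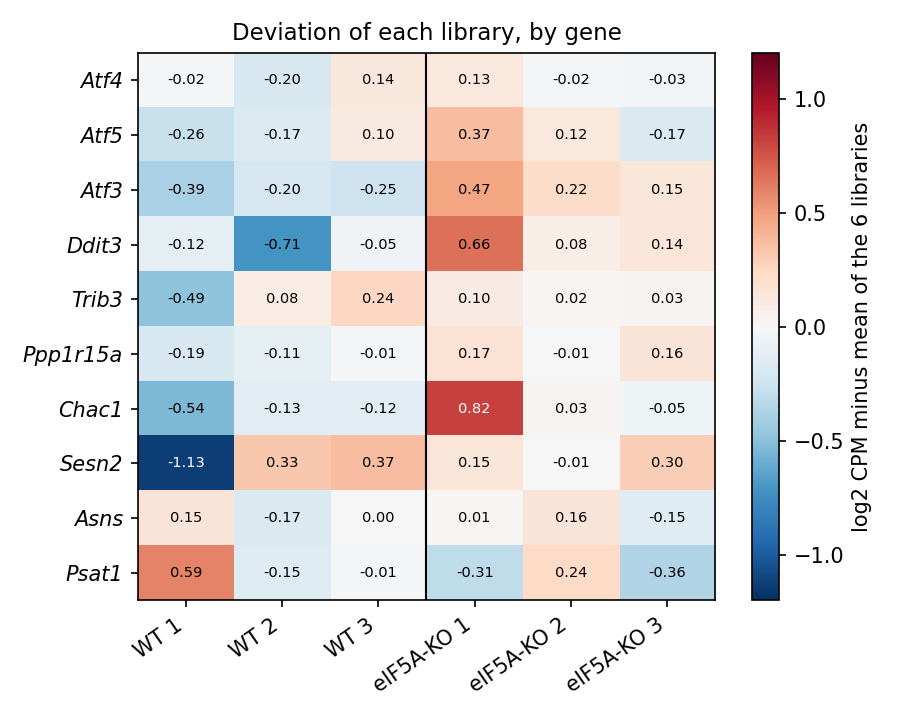
Log2 CPM of each gene in each library minus the mean of that gene over the 6 libraries; red is above and blue below that mean, and the line separates WT from eIF5A-KO. WT 1 is lowest in Sesn2 at -1.13 and eIF5A-KO 1 is highest in Chac1 at 0.82.

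The genes around the members were read from lists of the pathway. For each list the number called is at an adjusted p under 0.05 in edgeR, which 0.0204% of all tested genes passed. In the list of eIF2 kinases and eIF2 machinery (the subunits of eIF2 and of its exchange factor eIF2B, the kinases and their regulators), none of 18 was called and none had an unadjusted p under 0.05. Of these, 9 had a log2 fold change above 0 and 9 below, with a median of -0.01. The kinases showed no common direction. Eif2ak3, which encodes PERK, had a log2 fold change of 0.10 and Eif2ak4, which encodes GCN2, of -0.14. Eif2ak1, which encodes HRI, had one of 0.22 and Eif2ak2, which encodes PKR, of -0.36, with edgeR adjusted p-values between 0.910 and 0.967. The kinases were singled out after their values were seen.

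Of the other targets of the stress response, none of 23 tested was called. Of these, 19 had a log2 fold change above 0, and the median was 0.13. In 7 of them every eIF5A-KO library was above every WT library, with 5.68% of all tested genes showing that pattern. Cebpb and Gdf15 had an unadjusted p under 0.05. Cebpb, a C/EBP family factor that pairs with ATF4, was at 261, 280 and 280 CPM in WT and at 564, 390 and 331 CPM in eIF5A-KO. Its log2 fold change was 0.64 (SE 0.22, edgeR unadjusted p = 0.0155, adjusted p = 0.557). Gdf15, a secreted stress hormone, was at 290, 402 and 504 CPM in WT and at 800, 524 and 555 CPM in eIF5A-KO. Its log2 fold change was 0.65 (SE 0.25, edgeR unadjusted p = 0.0295, adjusted p = 0.644). In both genes eIF5A-KO 1 was the highest library, as in Atf3, Ddit3 and Chac1.

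Over all tested genes, 48.3% had a log2 fold change above 0. Lists were not tested against each other. In serine, glycine, one-carbon and proline synthesis, none of 15 genes was called, 11 had a log2 fold change below 0, and the median was -0.11. Shmt1, a cytosolic enzyme that moves one-carbon units between serine and glycine, was at 44.0, 40.6 and 43.6 CPM in WT and at 32.2, 35.2 and 25.4 CPM in eIF5A-KO (log2 fold change -0.47, edgeR unadjusted p = 0.0275, adjusted p = 0.644). Every eIF5A-KO library was also below every WT library in Cth, Gpt2 and Mthfd1l, named here after their values were seen, and 6.83% of all tested genes had that pattern. Mthfd2, the mitochondrial folate enzyme that ATF4 induces, had a log2 fold change of -0.11, and Phgdh, the entry enzyme of serine synthesis, of -0.19 (edgeR adjusted p = 0.952 and 0.949). Both were named after their values were seen.

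Among amino acid transporters, none of 12 was called, 8 had a log2 fold change below 0, and the median was -0.06. Slc7a3, a carrier of cationic amino acids, was at 2.33, 2.86 and 3.60 CPM in WT and at 2.08, 1.42 and 0.907 CPM in eIF5A-KO (log2 fold change -0.998, edgeR unadjusted p = 0.0258, adjusted p = 0.639). The other transporter with an unadjusted p under 0.05, Slc38a1, overlapped between genotypes (log2 fold change -0.78, edgeR adjusted p = 0.630) and was named after its values were seen. Slc3a2, the heavy chain that carries several amino acid transporters to the membrane, was at 405, 495 and 529 CPM in WT and at 654, 552 and 563 CPM in eIF5A-KO, so that its groups did not overlap (log2 fold change 0.31, edgeR adjusted p = 0.847), and it was likewise named after its values were seen. Of the 20 cytosolic aminoacyl-tRNA synthetases, 10 lay above 0 and 10 below, with a median of -0.02, none called and none with an unadjusted p under 0.05.

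The ATF6 and XBP1 arms, the branches of the unfolded protein response that run beside PERK, showed 11 of 25 tested genes above 0 and 14 below, with a median of -0.03, none called and none with an unadjusted p under 0.05. Of the C/EBP and ATF family partners, 10 of 18 tested lay above 0, with a median of 0.02. Cebpb was the only partner with an unadjusted p under 0.05, and it is also in the list of other stress targets. The paralogs of the members lay 4 above and 4 below 0. Among the regulators of mTORC1, the kinase complex that senses amino acids and can raise ATF4, 10 of 17 lay above 0, with a median of 0.08. None was called, nor was any called in the list of partners or of paralogs.

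**Figure D4:**
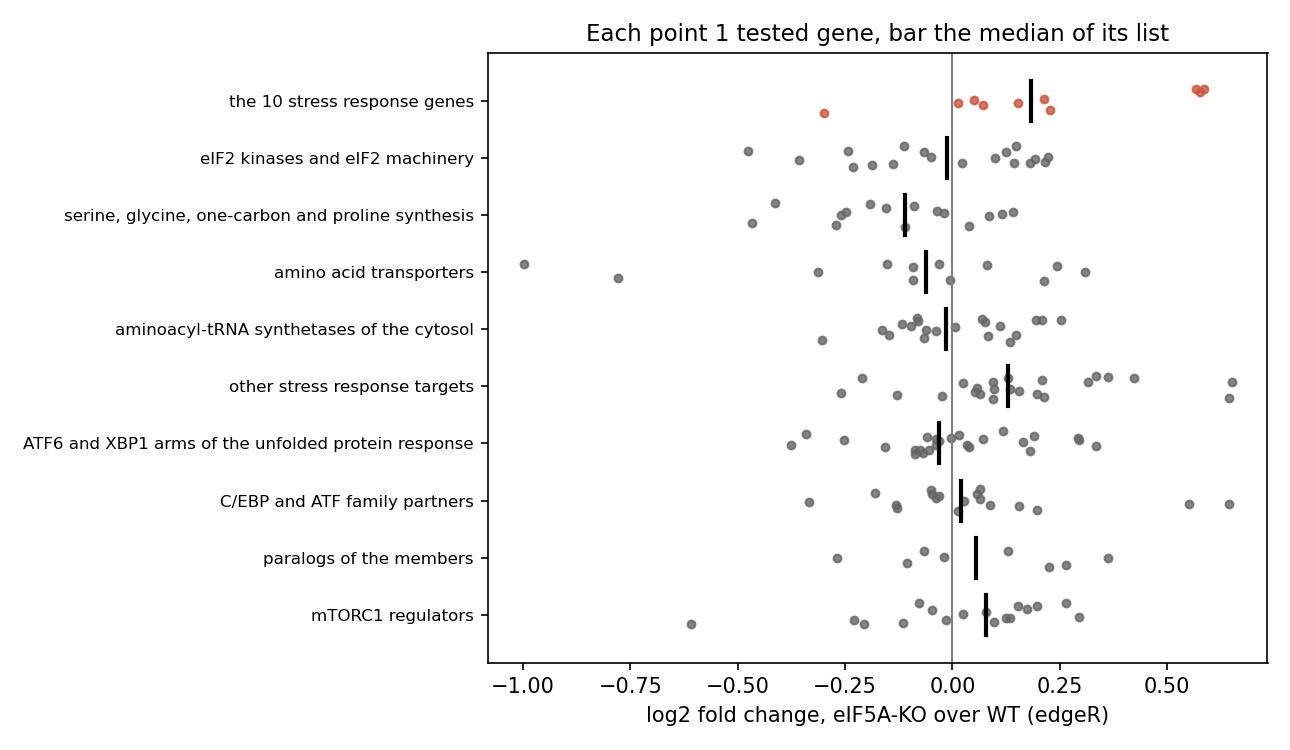
Log2 fold change, eIF5A-KO over WT, from edgeR for each tested gene of the 10 stress response genes and of 9 related lists; the bar is the median of each list. The 10 genes have a median of 0.18 and the other stress response targets 0.13, while the amino acid synthesis list lies at -0.11.

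Markers of the cell types that a muscle culture can hold were read in the same libraries, and 1 of them, Myh11, passed the test between genotypes. In bulk RNA, fewer cells of a type and less RNA per cell cannot be told apart. All 12 myoblast markers were detected, among them Myod1 at 196 to 550 CPM. Pax7 was at 12.9, 51.7 and 25.2 CPM in WT and at 13.0, 8.29 and 10.6 CPM in eIF5A-KO, and its groups overlapped (log2 fold change -1.50, edgeR adjusted p = 0.484). Of the 12 markers 11 had a log2 fold change below 0, with a median of -0.56, and none was called. At an unadjusted p under 0.05 in edgeR 3 were lower, as were 4.02% of all tested genes. Chrna1 (log2 fold change -1.62, edgeR adjusted p = 0.396) had an unadjusted p under 0.05 and every eIF5A-KO library below every WT library. Their summed level ranged from 814 to 2053 CPM in WT and from 756 to 1350 CPM in eIF5A-KO. WT 1 had the lowest sum of the WT libraries.

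All 10 mural cell markers had a log2 fold change above 0, with a median of 0.44, and Myh11, a smooth muscle myosin, was called (log2 fold change 1.52, edgeR adjusted p = 0.0486). Scaling by the size factors of DESeq2 ended that call, and no gene was called there. Pdgfrb (log2 fold change 0.81), Cspg4 (0.77) and Kcnj8 (0.50) had an unadjusted p under 0.05 in edgeR and groups that did not overlap. The groups of the remaining mural markers overlapped. Among these, Mcam had a log2 fold change of 0.10, and Tagln (0.17) was at only 0.551 to 0.829 CPM, both named after their values were seen. The summed level of the mural markers was 426 to 782 CPM in WT and 818 to 941 CPM in eIF5A-KO, which did not overlap. WT 1 had the lowest mural sum, and the other WT libraries were at 782 and 614 CPM. All 12 endothelial markers had a log2 fold change above 0, with a median of 0.38 and none called; Emcn had an unadjusted p under 0.05 and no overlap (0.51, edgeR adjusted p = 0.611), and their sum ranged from 1620 to 3395 CPM in WT and from 2848 to 4241 CPM in eIF5A-KO. WT 1 was also lowest in the endothelial sum, and the other WT libraries, at 3395 and 3013 CPM, lay within the range of eIF5A-KO. Of 12 macrophage markers 10 lay above 0 and none was called, with sums of 68.9 to 148 CPM in WT and of 69.7 to 183 CPM in eIF5A-KO. The highest macrophage sum was in eIF5A-KO 1, the library in which Chac1, Ddit3 and Atf3 were also highest. Of 11 tested fibroblast markers 5 lay above 0 and none was called, with sums of 3088 to 3922 CPM in WT and of 3053 to 4000 CPM in eIF5A-KO. Among these, the collagen genes Col1a1 (log2 fold change 0.72, edgeR unadjusted p = 0.0106, adjusted p = 0.504) and Col1a2 (0.71, unadjusted p = 0.00893, adjusted p = 0.495) were higher in every eIF5A-KO library than in every WT library. None of these marker genes was at 0 in all libraries, and the part of these cell types in the values of Atf3, Ddit3, Chac1 and Ppp1r15a was not tested.

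The genes whose pattern over the 6 libraries was most like the mean of the members, each centred on the log2 CPM scale, were Pias4 (Pearson r = 0.996), Prcc (0.995), Ctdnep1 (0.992), Oxa1l (0.991) and Rtl8b (0.988). They were the closest of 11028 genes with a mean of at least 5 CPM, and the 6 points share their libraries and scaling. Pias4, the closest, was at 41.3, 43.6 and 53.6 CPM in WT and at 64.7, 55.9 and 52.0 CPM in eIF5A-KO, with the lowest value in WT 1 and the highest in eIF5A-KO 1. Its groups overlapped through WT 3, and its log2 fold change was 0.32 (edgeR adjusted p = 0.823). None of the 5 genes passed the test between genotypes.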

How the data were processed

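The authors extracted RNA with TRIzol, made libraries with an NEBNext Ultra kit, mapped reads to mm10 with HISAT and deposited raw read counts per gene. The methods name DEGSeq2 for read coverage, and the HISAT version, annotation and counting rules are not given in the sources used here. A second table that the authors deposited holds FPKM, whose denominators equalled a median-of-ratios size factor times the geometric mean of the totals.

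Counts were tested in edgeR 4.0.16 (R 4.3.3, filterByExpr, TMM factors, quasi-likelihood F test, no covariate) with Benjamini-Hochberg adjustment over 14679 tested genes. The scripts were tested on simulated data. There edgeR called 42 of 109 genes given a fold change of 2 and 87 of 91 given a larger one. It made 7 false calls, and DESeq2 made 31. The largest fitted log2 fold change of a member, 0.58, was below both simulated sizes. A missing call therefore cannot show that a member was unchanged. Errors are SD unless named SE, and intervals are confidence intervals at 95%. Without molecular identifiers, counting error is a lower limit. Gene coordinates are those of the files and matched GENCODE M21. Copies were searched with blastn 2.17.0 (at least 200 bases at 90% identity). The members and lists were chosen with earlier results of these data known. Named are all members; list genes with an unadjusted p under 0.05 and no overlap between groups, at most 5 per list; the 5 genes most like the members; and Eif5a. A list gene that this rule covers is not reported here. Alternatives were other scalings (DESeq2's size factors, upper-quartile factors, library size alone, or leaving mitochondrial transcripts and the top 10 genes out), other filters (none, or 10 counts in every library), DESeq2 1.42.0, limma 3.58.1 (voom, or log2(FPKM + 1) and log2(FPKM + 0.1)), a replicate block, each library left out, and TGATGCAA for TGATGNAA.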

Additional observations from a re-analysis of the deposited data

How the results depend on the processing

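No member was called under any of the 17 alternatives, and none passed the criterion of the study. In the alternatives that called no gene at all, named below, no member could have been called. The share of all tested genes that met the criterion is not given for the alternatives. Atf3 kept an unadjusted p under 0.05 in all 17, with log2 fold changes of 0.47 to 0.63, and Ddit3 in 15 (0.39 to 0.71 over all 17). Chac1, with an unadjusted p of 0.0523 in the main edgeR fit, came under 0.05 in 4 (0.25 to 0.74 over all 17). The number of members at an unadjusted p under 0.05 was 2, and with a library left out it was 1 to 3, falling to 1 without WT 2 or without eIF5A-KO 1. With a library left out, log2 fold changes near 0 turned: Atf4 ranged from -0.030 to 0.14, Trib3 from -0.11 to 0.23, Asns from -0.065 to 0.10 and Sesn2 from -0.19 to 0.38. Asns was at -0.015 with library size alone. The cause was not tested. Under other scalings, tried after the data were seen, 3 or 4 members were higher without overlap. With a library left out, also tried after the data were seen, the number was 4 or 5. Fewer libraries make such a separation easier, and the share of all tested genes is not given for those settings. With TGATGCAA, 2 symbols held the element in place of 4.

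Of all tested genes, 3 were called in edgeR, 249 with no filter and 88 in DESeq2. None was called with DESeq2's size factors (992 at an unadjusted p under 0.05), library size alone (966), at least 10 counts in every library (907), limma-voom (961), or limma with log2(FPKM + 1) (980) and with log2(FPKM + 0.1) (980). With a library left out the count was 56 without WT 1 and 0 without any other library (585 to 1530 unadjusted). With the replicate number as a block 24 were called, no member among them. No pairing by number was seen: same-numbered deviations correlated at 0.084, -0.16 and 0.105, and 1 of 3 WT libraries correlated best with its own number. So few correlations cannot exclude a pairing, and the sources used here do not describe one. Counting error alone came to 6.03% in the least counted member and library, Chac1 in WT 1, and to less in the others.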
